A study of Homo sapiens with 6 samples.

Results

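The genes described here encode the classical axon guidance ligands and receptors, chosen by symbol from the counts table of Hep3B cells. They comprise every row whose symbol begins with SEMA, PLXN, EPHA, EPHB, EFNA, EFNB, ROBO or UNC5, or with SLIT or NTN and a digit, together with NRP1, NRP2, DCC and NEO1, while SLITRK genes and symbols with a hyphen were left out. The rule used no measured value and found 66 of the 16721 rows, and 45 of these 66 genes had enough reads to be tested. It also took UNC50 and UNC5CL, which share a prefix with the netrin receptors but are not guidance receptors.
Hep3B is an established human hepatocellular carcinoma line. RNA-seq counts came from 3 libraries labelled sgControl, of wild-type genotype, and 3 libraries labelled sgRFX6, in which the transcription factor gene RFX6 was knocked out, so that the comparison asks which guidance genes differ when RFX6 is targeted. According to the study's methods, guides were delivered in the lentiCRISPRv2 vector, infected cells were selected with puromycin and clones grown from single cells were expanded. The column names give 1 guide, sg3, for all 3 sgRFX6 libraries and name the control columns cas. Whether the 3 libraries of a group were separate clones or cultures is not given, so p-values measure the spread between these libraries, which may be technical, and a difference between clones and an effect of the knockout cannot be told apart.

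Guidance molecules were named for steering growing axons, yet many epithelial and cancer cells use them to control adhesion, migration and the shape of the cytoskeleton. Semaphorins signal through plexins, with neuropilins as co-receptors for most of the secreted class 3. Ephrins are membrane-bound ligands of the Eph receptor tyrosine kinases, Slits bind Robo receptors, and netrins act through DCC, neogenin (NEO1) and the UNC5 receptors.

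Libraries held from 16730374 to 25070770 counts on named rows. Levels are given as CPM, the counts scaled to a common library size with edgeR's TMM factors, or as CPM per kb of annotated exon where genes are compared with one another. A count of 3 corresponded to 0.122 to 0.189 CPM and was treated as the floor, and such limits cover counting error only. RFX6 itself stood at 5.64, 5.83 and 7.34 CPM in sgControl and at 3.43, 3.71 and 3.50 CPM in sgRFX6. The groups did not overlap, with a log2 fold change of -0.82 and an adjusted p of 0.142 in edgeR's quasi-likelihood test, and the smallest p that an exact permutation test of 3 against 3 can give is 0.1. Libraries of 1 group differed with the GC content of the genes, most between sgRFX6 3 and sgRFX6 1 (Spearman correlation across genes -0.83). Hepatocyte transcription factor HNF4A was present at means of 151 and 126 CPM in sgControl and sgRFX6, whereas the endothelial receptor KDR, the T cell gene CD3E and the neuronal genes SNAP25 and ELAVL3 had at most 3 counts in any library. The summed CPM of 13 hepatocyte markers lay at 550.3 to 638.7 in sgControl and 430.9 to 485.9 in sgRFX6, that of 6 fibroblast markers at 24.9 to 33.1 and 21.3 to 56.4, that of 4 endothelial markers at 11.8 to 13.6 and 13.4 to 19.7, most of it PECAM1, and that of 4 leukocyte markers at 73.5 to 158.7 and 63.0 to 101.5, most of it CD68. The 4 bile duct markers summed to 606.4 to 975.8 CPM in sgControl and 415.6 to 758.4 in sgRFX6, most of it KRT19. None of these 4 was called by edgeR, though KRT7 was lower without overlap (adjusted p = 0.149). Of the hepatocyte list AFP rose and FGA and FGB fell, and of the fibroblast list COL1A1 and COL1A2 fell. The neuron markers, 6 of the 8 listed being in the table, summed to 121.8 to 201.5 CPM in sgControl and 152.8 to 206.1 in sgRFX6, most of it TUBB3, and of 4 tested edgeR and DESeq2 called 0, with 0 at an unadjusted p under 0.05, and limma-voom called SYP. The part of these differences in the results below was not tested. In bulk RNA of 1 cell line, fewer cells expressing a gene and less of its RNA per cell cannot be told apart.

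Of the 45 tested guidance genes, 4 passed an adjusted p of 0.05 in edgeR's quasi-likelihood test. The ligand NTN4 rose, while the receptors PLXNC1 and NRP2 and the ligand SEMA6C fell. Among all 12839 genes tested, 3.74% passed, 1.92% as higher and 1.81% as lower in sgRFX6, and among the guidance genes the 4 make up 8.89%. With so few calls these shares describe the genes and were not compared by a test. The median log2 fold change was -0.06 over the 45 genes and 0.02 over all genes, with 19 guidance genes on the higher side and 26 on the lower side. Complete separation of the libraries was seen for 3 guidance genes with all sgRFX6 libraries higher and 7 with all lower, against 12.0% and 11.2% of all tested genes. Of 23 tested ligands, 1 was called higher and 1 lower, and of 20 tested receptors, 2 were called lower. With a correction for the GC trend of each library, edgeR called 4 higher and 6 lower, against 10.9% of all genes, and limma-voom with sample weights called 10 higher and 8 lower, against 31.1%.

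**Figure D1:**
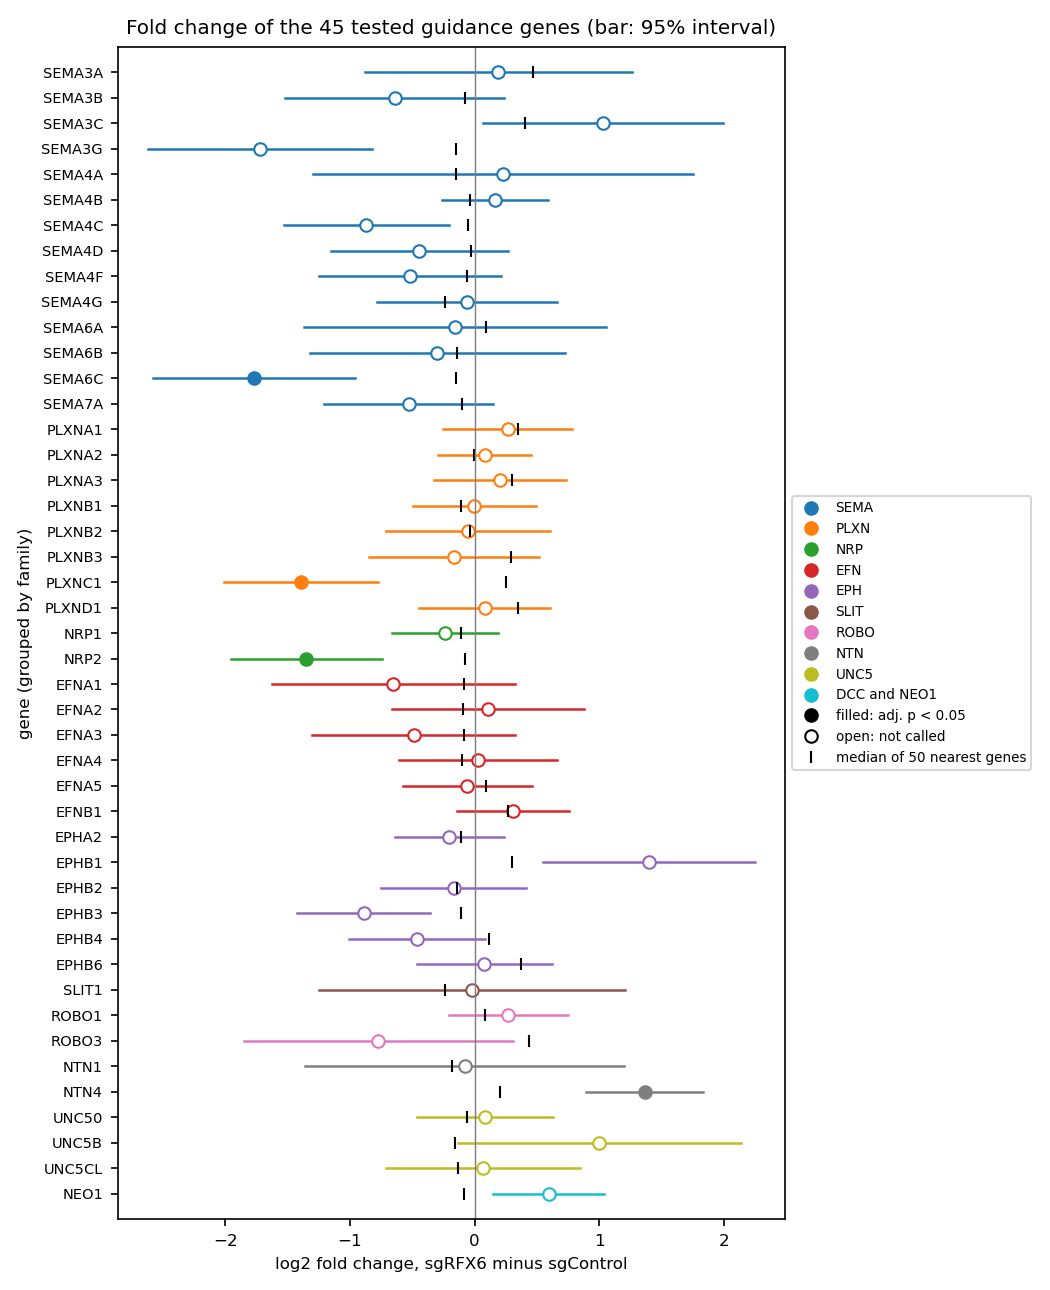
Log2 fold change (sgRFX6 minus sgControl, horizontal axis) of the 45 tested guidance genes, grouped by family and coloured by it, with 95% intervals as bars, filled points for an adjusted p under 0.05 and ticks for the median of the 50 nearest genes on the chromosome. Most intervals span 0, NTN4 at 1.36 is the filled point on the right, and SEMA6C, PLXNC1 and NRP2 from -1.77 to -1.35 are those on the left.

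The 250 bases ahead of the gene start in RefSeq on GRCh38.p14 are shown for the 3 called genes whose window held at most 1 annotated exonic base, because RFX6 is a DNA-binding factor and these are the genes whose transcripts changed. Capitals mark CpG dinucleotides, and each sequence runs 5′ to 3′ on the strand of the gene. The windows are chr12:95791156-95791405 (minus strand) for NTN4, chr12:94148327-94148576 (plus strand) for PLXNC1 and chr2:205682251-205682500 (plus strand) for NRP2. RefSeq and GENCODE place some starts differently, and the gene positions given below are from GENCODE, whose NRP2 model begins ahead of the window shown.
NTN4: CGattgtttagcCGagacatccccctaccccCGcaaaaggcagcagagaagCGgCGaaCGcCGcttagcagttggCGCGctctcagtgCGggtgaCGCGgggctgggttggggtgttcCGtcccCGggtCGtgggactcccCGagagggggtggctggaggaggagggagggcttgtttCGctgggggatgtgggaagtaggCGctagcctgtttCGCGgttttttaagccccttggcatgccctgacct
PLXNC1: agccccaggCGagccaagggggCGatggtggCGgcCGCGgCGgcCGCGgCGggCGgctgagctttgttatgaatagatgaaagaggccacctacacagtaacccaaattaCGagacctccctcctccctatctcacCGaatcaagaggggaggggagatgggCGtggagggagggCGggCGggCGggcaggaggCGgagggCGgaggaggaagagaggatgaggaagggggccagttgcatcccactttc
NRP2: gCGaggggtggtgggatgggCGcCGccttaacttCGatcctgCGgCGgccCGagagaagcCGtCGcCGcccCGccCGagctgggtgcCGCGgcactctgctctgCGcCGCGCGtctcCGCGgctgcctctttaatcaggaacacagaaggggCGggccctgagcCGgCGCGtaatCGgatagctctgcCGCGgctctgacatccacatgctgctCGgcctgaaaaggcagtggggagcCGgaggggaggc
The NTN4 window held 20 CpG, that of PLXNC1 18 and that of NRP2 29. A window at the RefSeq gene start, which for some genes lies far from the GENCODE start, was found for 46 of the 66 genes, while 11 had windows only at other starts and were not searched. The 46 had a median of 20 CpG, against 10 over 24882 gene starts. The short RFX motif GTTGCC was searched on both strands, its reverse complement being GGCAAC. It occurred in 3 of the 46 windows (6.52%), those of NTN5, SEMA7A and UNC50, and in 10.04% of all windows. The full X-box, which can contain that motif, occurred in 0 of the 46 and in 1.04% of all. Neither is in the windows of NTN4, PLXNC1, NRP2 or SEMA6C, which says only that these letters are absent from those bases. The study's supplement lists axon guidance among the pathways most enriched for RFX6 binding sites mapped by ChIP-seq. Those sites came from another hepatocellular carcinoma line overexpressing RFX6, and the list drew on RNA-seq as well. Binding at single guidance genes was not examined here.

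NTN4 encodes netrin-4, a secreted netrin found in basement membranes, where it binds laminin. The gene lies on GRCh38 at chr12:95657807-95791152 on the minus strand. Reads on NTN4 numbered 509, 485 and 551 in the sgControl libraries 1 to 3, which is 24.5, 19.6 and 23.8 CPM. The sgRFX6 libraries held 990, 926 and 1489 reads, or 49.2, 58.2 and 67.6 CPM. Every sgRFX6 library was far above every sgControl library. Mean levels were 22.7 ± 2.63 and 58.3 ± 9.23 CPM (SD, n = 3 each), a 2.58-fold rise (log2 fold change 1.36 ± 0.21 SE, 95% interval 0.90 to 1.83, adjusted p = 0.00884). The fold change stayed between 1.12 and 1.47 on the log2 scale under all 17 alternatives, and the call was lost in 1 of them, without sgControl 3 (adjusted p = 0.0518, against a lowest value of 2.67e-07).

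NTN4 carried nearly all netrin transcript in these cells. The 4 netrin genes together reached 6.26, 5.27 and 5.90 CPM per kb in sgControl and 12.5, 14.1 and 16.5 CPM per kb in sgRFX6, and NTN4 made up 89.5% to 98.8% of that level in each library. NTN1, which encodes the classical chemoattractant netrin-1, was the other tested netrin, with 17, 29 and 9 reads against 26, 8 and 10 (log2 fold change -0.08, 95% interval -1.36 to 1.199). NTN3 was listed at 4 to 11 reads in sgControl and 3 to 15 in sgRFX6 and was not tested.

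Of the tested netrin receptors, NEO1 and UNC5B, neither passed in edgeR or DESeq2, while limma-voom called both higher and edgeR with the GC correction called NEO1 higher (adjusted p = 0.0310). Neogenin, encoded by NEO1 and also a receptor for repulsive guidance molecules, stood at 31.4, 41.0 and 34.0 CPM in sgControl and 60.7, 51.9 and 48.0 CPM in sgRFX6. The groups did not overlap, yet the difference missed the threshold (log2 fold change 0.59, 95% interval 0.15 to 1.04, adjusted p = 0.163). UNC5B, a dependence receptor for netrin-1, ranged over 3.61 to 11.4 CPM in sgControl and 8.61 to 18.8 CPM in sgRFX6, so its groups overlapped. Its log2 fold change was 0.9995 (95% interval -0.14 to 2.13), and it rose to 1.77 on the same log2 scale without sgControl 2. DCC, the founding netrin receptor, had 0 reads in every sgControl library and 1, 2 and 1 reads in sgRFX6, all at or below the floor. UNC50, which is a Golgi membrane protein despite its symbol, had the highest level per length of the 5 UNC5-prefixed rows, with means of 5.14 and 5.44 CPM per kb.

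PLXNC1 encodes plexin C1, the receptor for semaphorin 7A. It lies at chr12:94148723-94307675 on the plus strand, 1350132 bases from NTN4. Reads numbered 727, 982 and 701 in sgControl, or 35.0, 39.8 and 30.3 CPM. In sgRFX6 they numbered 223, 166 and 406, or 11.1, 10.4 and 18.4 CPM. All sgRFX6 libraries lay below all controls, and sgRFX6 3 was the highest of its group. The means of 35.0 ± 4.76 and 13.3 ± 4.45 CPM (SD, n = 3 each) correspond to a 2.63-fold fall (log2 fold change -1.39 ± 0.27 SE, 95% interval -2.01 to -0.77, adjusted p = 0.0261). Direction held in all 17 alternatives, from -1.70 to -1.25, but with 1 library left out the call held only without sgRFX6 3, and over all alternatives the adjusted p ran from 2.32e-05 to 0.122, the latter without sgRFX6 1. PLXNC1 shares 177 exonic bases with CEP83 and 222 with AC073655.2 on the opposite strand, and counting by strand is not stated, so some of its reads may belong to them.

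SEMA7A, the ligand of plexin C1, was not called by edgeR or DESeq2, while limma-voom called it lower (log2 fold change -0.54, adjusted p = 0.0355). It measured 12.9, 15.5 and 17.3 CPM in sgControl and 10.5, 14.3 and 6.90 CPM in sgRFX6 (edgeR log2 fold change -0.53, 95% interval -1.21 to 0.15, adjusted p = 0.462). The ratio of SEMA7A to PLXNC1 in CPM per kb was 0.956, 1.01 and 1.49 in sgControl and 2.46, 3.57 and 0.974 in sgRFX6, so this ratio overlapped between the groups through sgRFX6 3.

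NTN4 and PLXNC1 moved in opposite directions although they are close on chromosome 12. The median log2 fold change of the 50 tested genes nearest to each was 0.20 for NTN4 and 0.25 for PLXNC1. Between them lie 7 tested genes, of which TMCC3 passed the test, with a log2 fold change of -4.72 ± 0.43 SE (adjusted p = 0.00107), and the median of the 7 was -0.03. Of 31 tested genes from 4 Mb before PLXNC1 to 4 Mb past NTN4, 4 passed, the fourth being SOCS2, a suppressor of cytokine signalling, at -2.07 ± 0.38 SE (adjusted p = 0.0209). TMCC3 and SOCS2 were chosen after their values were seen.

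**Figure D2:**
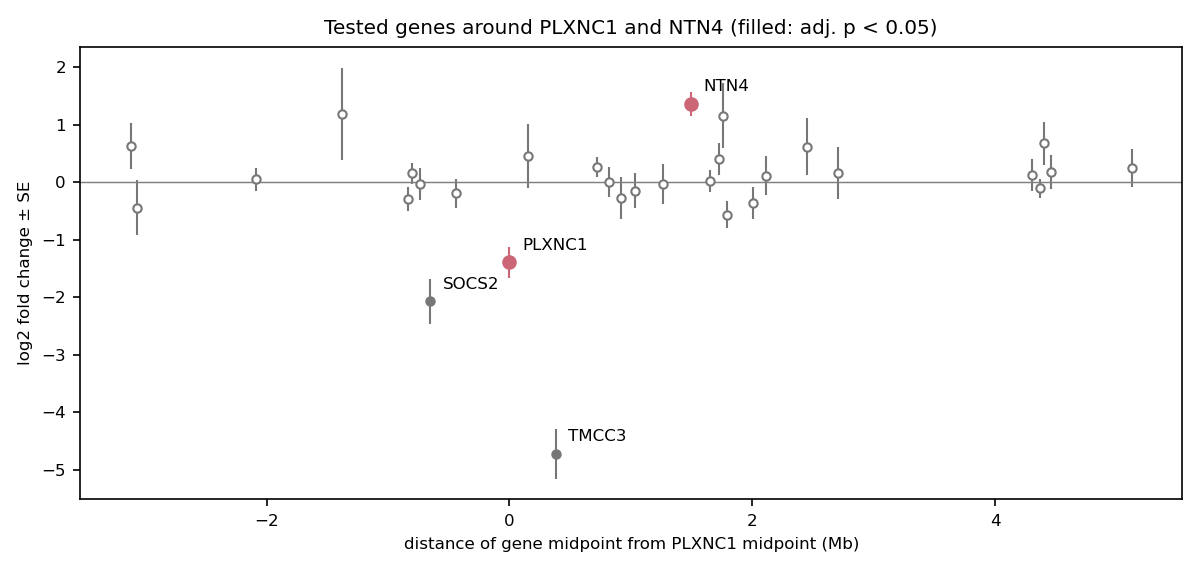
Log2 fold change ± SE (sgRFX6 minus sgControl) of 31 tested genes on chromosome 12, plotted by distance in Mb from the midpoint of PLXNC1, with filled points for an adjusted p under 0.05. PLXNC1, TMCC3 and SOCS2 lie below 0 and NTN4 above it, while the other 27 points are open.

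NRP2 encodes neuropilin-2, a co-receptor for class 3 semaphorins and for vascular endothelial growth factor C. The gene lies at chr2:205681990-205798133 on the plus strand. Reads numbered 613, 1230 and 656 in sgControl, or 29.5, 49.8 and 28.3 CPM. In sgRFX6 they numbered 263, 243 and 307, or 13.1, 15.3 and 13.9 CPM. The sgRFX6 libraries were close to one another and all below the controls, among which sgControl 2 was highest. Means were 35.9 ± 12.1 and 14.1 ± 1.11 CPM (SD, n = 3 each), a 2.55-fold fall (log2 fold change -1.35 ± 0.27 SE, 95% interval -1.96 to -0.74, adjusted p = 0.0274). With 1 library left out the fall ranged from -1.47 to -1.04, and the call was lost without sgControl 3 (adjusted p = 0.0684), sgRFX6 1 (0.122) or sgRFX6 2 (0.0684), while its lowest value over the alternatives was 0.000178. An antisense transcript, AC007362.1, shares 147 exonic bases with NRP2.

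NRP1, the other neuropilin and the co-receptor for semaphorin 3A, had the higher level of the pair in every library. It measured 107.6, 106.4 and 104.6 CPM in sgControl and 86.9, 72.6 and 110.7 CPM in sgRFX6, with overlapping groups (edgeR log2 fold change -0.24, 95% interval -0.66 to 0.19, adjusted p = 0.630). Limma-voom called NRP1 lower as well (log2 fold change -0.32, adjusted p = 0.0365). The ratio of NRP1 to NRP2 in CPM per kb was 4.39, 2.58 and 4.45 in sgControl and 8.03, 5.73 and 9.57 in sgRFX6, higher in all 3 sgRFX6 libraries than in any control. NRP2 made up 18.3% to 28.0% of the neuropilin level in sgControl and 9.46% to 14.9% in sgRFX6.

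SEMA6C encodes a transmembrane semaphorin of class 6, at chr1:151131685-151146664 on the minus strand. Reads numbered 262, 528 and 246 in sgControl, or 12.6, 21.4 and 10.6 CPM. The sgRFX6 libraries held 120, 52 and 84 reads, or 5.96, 3.27 and 3.82 CPM. All were below the controls, of which sgControl 2 was again the highest. Means were 14.9 ± 5.73 and 4.35 ± 1.42 CPM (SD, n = 3 each), a 3.41-fold fall (log2 fold change -1.77 ± 0.36 SE, 95% interval -2.58 to -0.96, adjusted p = 0.0288). The call held in 2 of 6 fits with 1 library left out, those without sgControl 1 and without sgRFX6 1, and over all alternatives the adjusted p ran from 0.000112 to 0.0950, the latter without sgRFX6 2. SEMA6C made up 84.9% to 87.2% of class 6 semaphorin CPM per kb in sgControl and 55.1% to 75.6% in sgRFX6, the remaining class 6 genes SEMA6A and SEMA6B not being called.

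**Figure D3:**
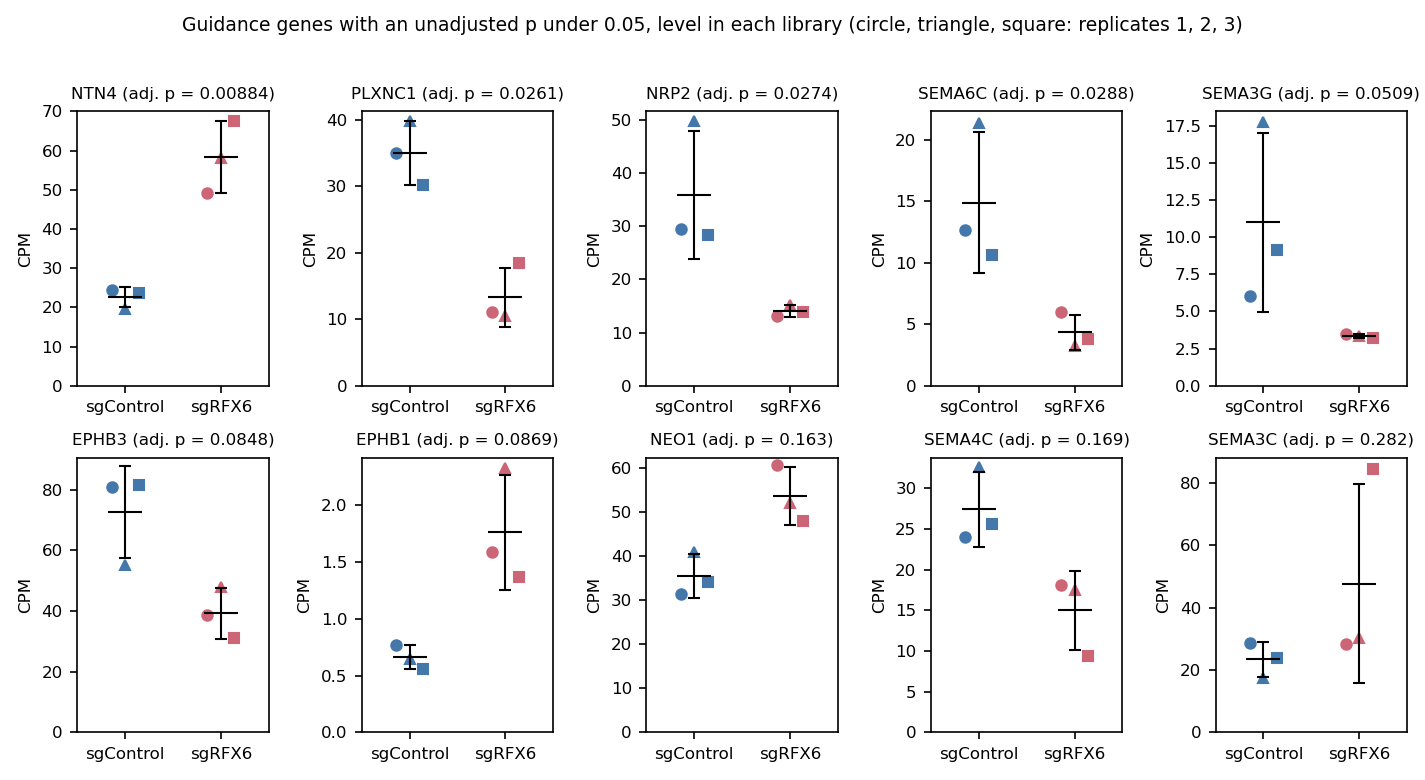
CPM in each library (points, with replicates 1, 2 and 3 as circle, triangle and square) of the 10 guidance genes with an unadjusted p under 0.05, 1 panel per gene with its adjusted p. The groups separate in 9 of the 10 panels, and in that of SEMA3C the sgRFX6 3 library at 84.6 CPM stands above the other 5. The 10 genes were chosen by p from these libraries, so their separation is no further evidence. Among all tested genes 23.1% separated.

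The class 3 semaphorins, which are secreted and signal through neuropilins and plexins, held no call by edgeR among 4 tested genes, with 2 at an unadjusted p under 0.05, while DESeq2 and limma-voom each called 1, SEMA3G, and edgeR with the GC correction called SEMA3G and SEMA3C. Semaphorin 3G, a ligand of neuropilin-2, had 126, 438 and 212 reads on its gene in sgControl, or 6.07, 17.7 and 9.15 CPM. In sgRFX6 it had 70, 53 and 70 reads, or 3.48, 3.33 and 3.18 CPM. All sgRFX6 values lay below all controls, and SEMA3G just missed the threshold (log2 fold change -1.72 ± 0.40 SE, 95% interval -2.62 to -0.83, adjusted p = 0.0509), passing in 6 of the 17 alternatives.
SEMA3C, another secreted semaphorin, pointed the other way through a single library. It measured 28.8, 17.6 and 23.8 CPM in sgControl and 28.2, 30.4 and 84.6 CPM in sgRFX6. Its log2 fold change was 1.03 (95% interval 0.06 to 1.996, adjusted p = 0.282), 0.33 without sgRFX6 3, and 0.86 with the GC correction (adjusted p = 0.0455). SEMA3C has a GC content of 39.4%, and the same library was also highest for SEMA3A, which measured 11.2, 12.8 and 8.59 CPM in sgControl and 7.25, 6.54 and 23.3 CPM in sgRFX6.
SEMA3D was at the floor in sgControl, with 2, 1 and 0 reads, and had 4, 4 and 16 reads in sgRFX6. Summed over libraries its ratio was 9.45 with a 95% counting interval of 2.87 to 49.0, and 5.08 (1.22 to 29.7) without sgRFX6 3. SEMA3D was not tested and is named because it left the floor in sgRFX6 only. A ratio in this direction follows from that choice, and the interval leaves out the spread between libraries. Its GC content is 34.9%.

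The class 4 semaphorins, transmembrane ligands that mostly signal through B plexins, were all expressed and were all tested. Of these 6 genes edgeR and DESeq2 called 0, with 1 at an unadjusted p under 0.05 in each, limma-voom called SEMA4A, SEMA4B and SEMA4C, and edgeR with the GC correction called SEMA4C (adjusted p = 0.0114). SEMA4B had the highest level per length of all semaphorins, with means of 19.7 and 22.0 CPM per kb (log2 fold change 0.16, 95% interval -0.26 to 0.59). SEMA4G came next in the mean over all 6 libraries, at 6.06 and 5.82 CPM per kb, with 22.3% of its exonic bases shared with MRPL43 on the opposite strand. SEMA4C, a ligand of plexin B2, measured 24.0, 32.6 and 25.6 CPM in sgControl and 18.1, 17.5 and 9.40 CPM in sgRFX6, without overlap (log2 fold change -0.87, 95% interval -1.53 to -0.21, adjusted p = 0.169). Both class 5 genes, SEMA5A and SEMA5B, had at most 1 read in any library.

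Plexins, the semaphorin receptors, made up the most abundant family, with a summed level of 194.5 to 289.0 CPM per kb in sgControl and 177.2 to 271.7 in sgRFX6. PLXNB2, a receptor for class 4 semaphorins, had means of 80.9 and 78.1 CPM per kb. PLXND1, best known as the semaphorin 3E receptor of the vasculature, had 67.9 and 71.9 CPM per kb. Their log2 fold changes of -0.05 (95% interval -0.71 to 0.61) and 0.08 (-0.45 to 0.61) were not called, and PLXNB2 changed sign in limma-voom, at 0.41 (adjusted p = 0.0366).
The log2 fold changes of the 3 tested A plexins and the 3 B plexins all lay between -0.17 and 0.26. None of them was called by edgeR or DESeq2 or had an unadjusted p under 0.05 there, while limma-voom called PLXNA3 and PLXNB2 higher. Outside these classes, limma-voom also called PLXND1 higher. The median log2 fold change of the 50 tested genes nearest to each was 0.30 for PLXNA3, -0.04 for PLXNB2 and 0.35 for PLXND1. In edgeR corrected by these medians the log2 fold changes were -0.10, -0.01 and -0.27 in that order, none of them called. PLXNC1 was a minor plexin by level, at 1.39% to 1.82% of the summed plexin CPM per kb in sgControl and 0.401% to 1.05% in sgRFX6.

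Ephrins and Eph receptors were plentiful, and none of their 12 tested genes was called by edgeR, with 2 at an unadjusted p under 0.05, whereas DESeq2 called EPHB3 and limma-voom called EFNB1, EPHB1 and EPHB3, and edgeR with the GC correction called EPHB1 and EPHB3. EFNB1, which encodes ephrin-B1, led the ligands with means of 76.1 and 94.1 CPM per kb (log2 fold change 0.31, 95% interval -0.14 to 0.76). The median log2 fold change of the 50 tested genes nearest to EFNB1 was 0.27. In edgeR corrected by that median its log2 fold change was 0.04 (adjusted p = 0.979). EFNA4 was next, at 18.1 and 18.5 CPM per kb, though 14.96% of its exonic bases belong also to AL691442.1, a gene model on the same strand. Among receptors, EPHA2, widely studied in carcinoma, stood at 44.3 and 38.4 CPM per kb (log2 fold change -0.20, 95% interval -0.64 to 0.23). EPHB6, whose kinase domain is inactive, stood at 38.4 and 40.6 CPM per kb (log2 fold change 0.08, 95% interval -0.46 to 0.62).

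A pair of EphB receptors separated the groups in opposite directions. In edgeR they passed the threshold with the GC correction (adjusted p = 0.0313 for EPHB1 and 0.0437 for EPHB3) but not without it. Limma-voom, run without that correction, called both, and DESeq2 called EPHB3. EPHB3 measured 81.0, 55.2 and 81.6 CPM in sgControl and 38.6, 47.9 and 31.1 CPM in sgRFX6 (log2 fold change -0.89, 95% interval -1.42 to -0.36, adjusted p = 0.0848). Its share of EphB CPM per kb was 12.9% to 20.2% in sgControl and 10.4% to 12.5% in sgRFX6. EPHB1 had 16, 16 and 13 reads in sgControl and 32, 37 and 30 in sgRFX6, near the lower end of the tested range (log2 fold change 1.40, 95% interval 0.55 to 2.25, adjusted p = 0.0869).

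Of the Slit and Robo genes, ROBO1 alone was abundant. ROBO1, the main receptor for Slit ligands, had means of 14.8 and 17.9 CPM per kb, and its CPM were 172.1, 147.9 and 163.4 in sgControl and 166.5, 160.5 and 256.5 in sgRFX6 (log2 fold change 0.27, 95% interval -0.21 to 0.75). ROBO3, which lowers Slit sensitivity in commissural axons, had 0.863 and 0.506 CPM per kb (log2 fold change -0.77, 95% interval -1.85 to 0.31). Its sgControl 2 library stood at 10.3 CPM against 4.10 and 3.799 in the other controls, and the log2 fold change was -0.15 without it and 0.17 in limma-voom. The ligands were close to absent, with SLIT1 at 4 to 14 reads per library (log2 fold change -0.02, 95% interval -1.25 to 1.21) and SLIT2 at 1 to 5 reads. Of the 2 Robo genes and 1 Slit gene tested, edgeR, DESeq2 and limma-voom called 0, none with an unadjusted p under 0.05.

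**Figure D4:**
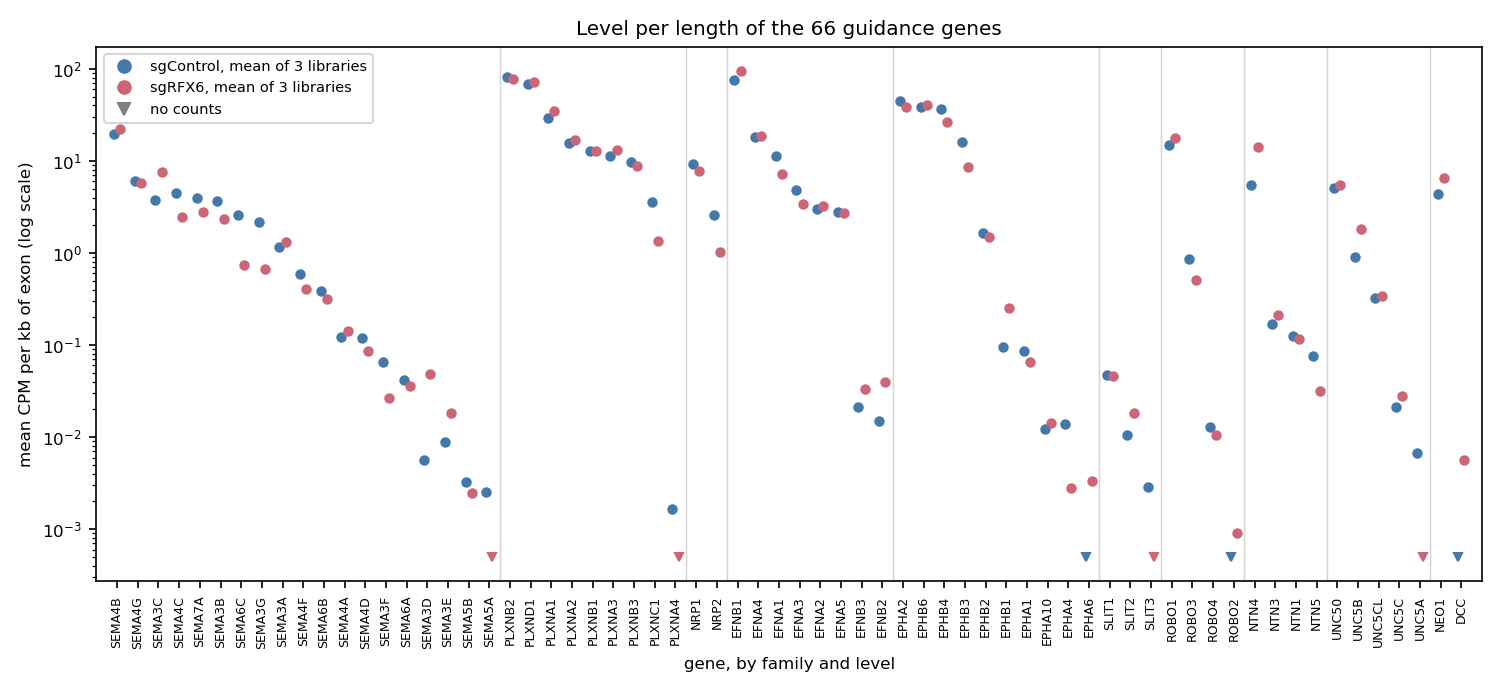
Mean CPM per kb of exon (log scale) of the 66 guidance genes in sgControl and sgRFX6, 1 point per group and gene, ordered by family and level, with triangles in the colour of a group for genes without counts in it (grey in the legend). Levels run from PLXNB2 and EFNB1 at 76.1 to 94.1 CPM per kb down to genes without a read, and the points of the same gene lie close together for most genes.

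The 21 guidance genes left out of the test were low throughout, the highest count in any library being 21. Of these, 10 had at most 3 reads in every library, 3 had no reads in sgControl and 4 had none in sgRFX6. They include DCC, ROBO2, ROBO4, EFNB2, EPHA4 and SLIT3, for which a difference was not detectable at this depth. Among the 41 tested genes that edgeR did not call, the 95% interval stayed within a log2 fold change of 1 either way for 20 and reached past it for 21.

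The values of guidance genes also followed differences between libraries of 1 group. The sgControl 2 library was the highest of the controls for 29 of the 45 tested genes, and sgRFX6 3 was the lowest of its group for 30. Across the 45 genes, the log2 ratio of sgRFX6 3 to the mean of sgRFX6 1 and 2 had a Spearman correlation of -0.74 with GC content, and the ratio of sgControl 2 to the mean of sgControl 1 and 3 one of 0.41. These are correlations across genes that share libraries, given as a description. Guidance genes ranged from 36.7% to 71.1% in GC content, and the fold changes of the 4 called genes with the GC correction were 1.36 for NTN4, -1.40 for PLXNC1, -1.34 for NRP2 and -1.69 for SEMA6C, all still called.

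**Figure D5:**
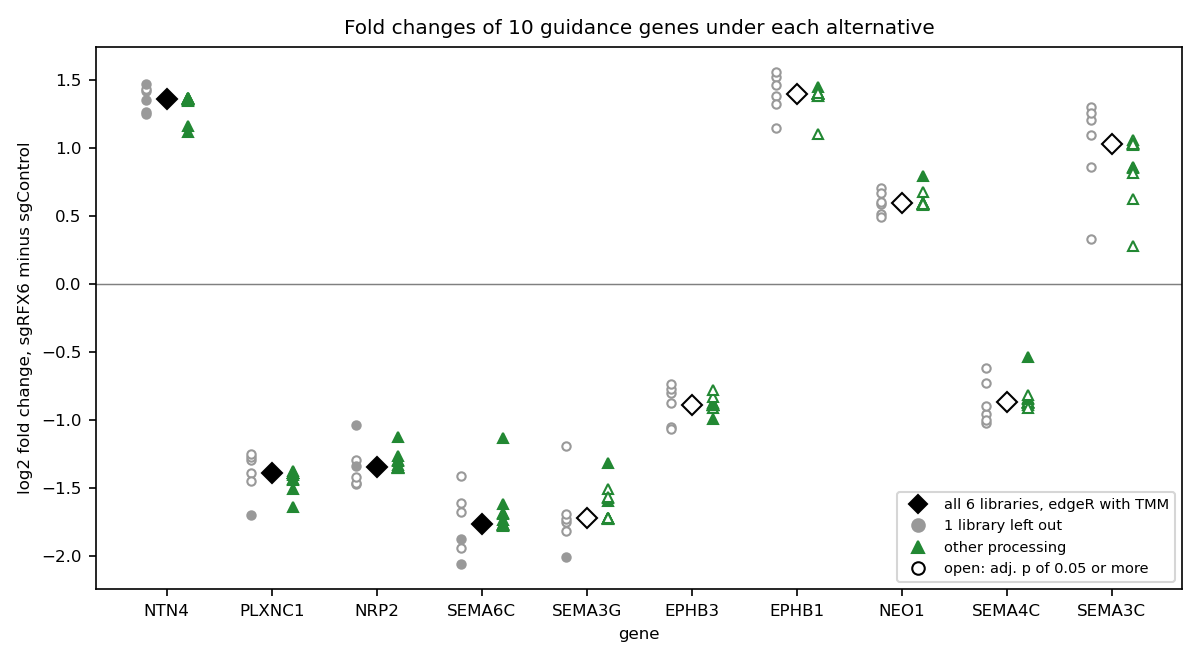
Log2 fold change (sgRFX6 minus sgControl) of the 10 guidance genes with an unadjusted p under 0.05, with 1 point for the edgeR fit of all 6 libraries, 1 for each fit without a library and 1 for each other processing, open where the adjusted p was 0.05 or more. Every point of the 10 genes lies on the side of its first fit, and SEMA3C spreads from 0.28 to 1.30. These fits share libraries with the first fit, by which the genes were chosen, so the shared side is no independent evidence.

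Genes that act with or after these receptors were taken from a list of 90 partners and effectors, of which 74 were tested and 3 passed (4.05%, against 3.74% of all genes), all lower. FES, a tyrosine kinase that associates with plexin A1, had 60, 153 and 73 reads in sgControl and 12, 2 and 13 in sgRFX6 (log2 fold change -3.16 ± 0.55 SE, adjusted p = 0.0154), and lost the call without sgRFX6 1 (0.0539). DPYSL3, a collapsin response mediator protein that binds tubulin and actin, had 94, 82 and 101 against 22, 14 and 18 reads (log2 fold change -2.12 ± 0.32 SE, adjusted p = 0.00885), and lost the call without sgControl 3 (0.0501). FLRT2, a membrane protein shed as a ligand of UNC5 receptors, had 78, 58 and 74 against 10, 9 and 9 reads (log2 fold change -2.66 ± 0.37 SE, adjusted p = 0.00584) and was called in all 17 alternatives. By role, among those reported, 1 of 14 kinases and adaptors, 1 of 22 cytoskeletal effectors and 1 of 14 further ligands, co-receptors and proteases passed.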

How the data were processed

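RNA of Hep3B cells (Trizol) was made into cDNA libraries and sequenced by Illumina, and the authors deposited raw read counts per gene, 1 column per library and not normalised. Genome builds GRCh38 and hg38 are named in the submitters' processing notes. The aligner, the counting program, the annotation and the use of strand are not given in the sources used here. A nameless row, at most 9.17e-05% of any library, was dropped. Testing used edgeR 4.0.16 under R 4.3.3. Low genes were removed with filterByExpr (minimum count 10, minimum total 15), libraries were scaled by TMM, and sgRFX6 was compared with sgControl over all 6 libraries by the quasi-likelihood test, with Benjamini-Hochberg adjustment over 12839 genes and a threshold of 0.05. GENCODE release 29 supplied positions, GC content and exon lengths (15422 row names matched directly, 257 by another symbol, 1042 unmatched), and promoter windows from RefSeq. Libraries of 1 group differed beyond sampling noise (chi-square per degree of freedom 16.9 to 122), so each was counted once.
Genes were named where they had an adjusted or an unadjusted p under 0.05, were the 2 highest per length of their family, left the floor of 3 counts in 1 group only, or were called on the list of partners. Other genes appear for their part in a ligand and receptor pair and were chosen after their values were seen. The guidance genes, lists and tests were chosen with earlier results of these data known. As alternatives, DESeq2 1.42.0 and limma-voom (limma 3.58.1) with sample quality weights were run, as were RLE factors, unscaled library sizes, a robust dispersion, 2 other filters, the replicate number as a block, a correction for GC content (loess span 0.3), a correction by the nearest 50 genes, and the removal of each library in turn. The edgeR step was tested on simulated counts of this comparison over 12908 genes. There it recovered 99.0% of genes changed by a log2 fold of 2 and 30.2% of those changed by 1, and 4.35% of its calls were false. Whether these rates hold for the measured libraries, which differed with GC content within a group, was not tested. One group of partner genes is not reported here.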

Additional observations from a re-analysis of the deposited data

How the results depend on the processing

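Library scaling, robust dispersion, both filters on low counts and the regional correction kept the calls of NTN4, PLXNC1, NRP2 and SEMA6C. DESeq2 called 895 of all genes, 6 guidance genes (1 higher, 5 lower) and 7 partner genes. Limma-voom with sample quality weights called 3998 of all genes, 18 guidance genes (10 higher, 8 lower) and 26 partner genes, turned PLXNB2 to 0.41 (adjusted p = 0.0366) and placed RFX6 at -0.96 (adjusted p = 0.00274). The GC correction called 1405 of all genes, 10 guidance genes (4 higher, 6 lower) and 9 partner genes, with RFX6 at -0.84 (adjusted p = 0.0446). The cause of these larger counts was not tested.
With 1 library left out, the calls ranged from 212 to 718 over all genes, from 0 to 4 over the guidance genes (0 to 1 higher, 0 to 3 lower) and from 2 to 7 over the partners. The count of 0 came without sgControl 3, where 9 guidance genes had an unadjusted p under 0.05, and guidance genes numbered 2 without sgControl 2, 2 without sgRFX6 1 and 1 without sgRFX6 2. Over all genes they numbered 306 without sgControl 1, 212 without sgControl 3, 216 without sgRFX6 1 and 303 without sgRFX6 2, and the 7 partner genes came without sgRFX6 3.
Deviations of same-numbered libraries correlated at -0.41, 0.17 and -0.09, and none of sgControl 1 to 3 correlated best with its own number. Their best matches were sgRFX6 3, 1 and 2 in turn, at 0.57, 0.44 and 0.28. With 3 libraries per group that also differed with GC content, these values cannot decide whether the libraries were paired. With the replicate number as a block, 648 of all genes and 5 guidance genes were called, SEMA3G joining the 4. With the GC correction added these were 649 and 5, with SEMA4C in place of SEMA3G. Depth limited the low genes, SLIT1 at 4 to 14 reads per library having a 95% interval from -1.25 to 1.21.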
